A study of Mus musculus with 12 samples.

Results

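The numbered Zfp genes of the mouse encode zinc finger proteins, and 264 of them were measured in the macrophage cell line RAW264.7 among 13860 genes tested. Members carry a symbol made of Zfp and digits. Zfp36, whose product is an RNA-binding protein of another finger type, was left out. The array held 519 probes for 329 such genes, and a gene was kept when a probe was well above background, by the scanner's own flag, on all 3 arrays of at least 1 of the 4 groups. The brightest such probe stood for the gene. Of the 65 genes not kept, 43 were above background on 0 arrays and 22 on 1 to 11 arrays. Of the members, 248 were well above background in all 4 groups, 3 in 3 groups, 7 in 2 groups and 6 in 1 group. The last 16 could pass through the group in which they were bright, so counts are also given for the 248.

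The groups were NS (neither addition), HS (40 mM NaCl added), NS+LPS (10 ng/ml LPS) and HS+LPS (both), each kept for 24 h and each with 3 arrays. All were 1 cell line, and LPS, lipopolysaccharide, is a bacterial cell wall component that macrophages sense through TLR4. The labels do not spell out HS and NS; the title of the series speaks of high salt. They do not call the replicates separate cultures, so p-values measure only the spread between these samples. Levels are given as a percent of the array's 75th percentile signal, and differences as log2.

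The 75th percentile was 411 to 438 in HS+LPS and 613 to 783 in the other groups, and 43.7 to 52.8% of probes were well above background. The HS+LPS arrays were alone on their slide and scan day, so in every comparison with HS+LPS the group and the slide cannot be told apart. All arrays of NS and HS and the first 2 of NS+LPS were on 1 other slide. Of 10 macrophage markers 9 were well above background on all 12 arrays (Mertk on 0), while all 5 epithelial markers were on 0. Among T cell markers Cd3e and Cd4 were well above background on all 12 arrays and Cd3g on 0. The endothelial markers Pecam1 and Kdr and the neuronal markers Snap25 and Syp were also well above background on all 12.

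Most Zfp proteins bind DNA through tandem C2H2 fingers, loops in which a pair of cysteines and a pair of histidines hold a zinc ion. Many carry a KRAB domain, which recruits the corepressor TRIM28 and with it the histone methyltransferase SETDB1 and HP1 proteins, and silences retroelements. Their genes arose by tandem duplication and lie in clusters, and neighbours can share long stretches of sequence. Others work outside transcription, in ubiquitin transfer, ribosome quality control or binding of double-stranded RNA.

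The 60-base probes of 28 members (10.6%) read through finger-coding sequence, against 87 of 13860 genes tested (0.63%), as judged by a reading frame with no stop codon that holds a cysteine signature or linker typical of C2H2 fingers. Among them are the probes of 5 members described below, shown 5′ to 3′ because their values rest on these letters alone or, for Zfp219 and Zfp930, on the brighter of 2 probes. Capitals mark the codons of the signature, which is the pair of cysteines with the residues around it in Zfp811, Zfp383 and Zfp930, and the run from the second cysteine on in Zfp651 and Zfp219.
Zfp811: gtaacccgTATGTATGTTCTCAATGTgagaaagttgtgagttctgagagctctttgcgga
Zfp651: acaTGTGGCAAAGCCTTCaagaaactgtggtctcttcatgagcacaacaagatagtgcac
Zfp383: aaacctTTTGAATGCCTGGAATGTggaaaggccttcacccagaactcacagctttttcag
Zfp219: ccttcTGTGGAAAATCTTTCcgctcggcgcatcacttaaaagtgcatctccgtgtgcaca
Zfp930: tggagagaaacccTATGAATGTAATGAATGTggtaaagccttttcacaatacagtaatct
On mm9 they lie at chr17:32934542-32934601 (minus strand), chr9:121674607-121674666 (plus strand), chr7:30700559-30700618 (plus strand), chr14:52627042-52627101 (minus strand) and chr8:71752264-71752323 (plus strand). The Zfp930 probe shared a run of 24 bases with the Zfp442 probe and of 30 bases with a Gm10778 probe, so RNA of these relatives could add to its signal. The other 4 shared no run of 20 bases or more with another gene's probe on the array.

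LPS lowered more Zfp genes than it raised at both salt levels, though under cyclic loess normalization the excess of falls was gone without added salt. Without added salt 57 of 264 members rose, against 28.6% of all genes tested, and 85 fell, against 35.1% (limma, Benjamini-Hochberg adjusted p under 0.05). The members called were 21.6% and 32.2%. With added salt 57 rose, against 30.5% of all genes, and 121 fell, against 41.8%, which is 21.6% and 45.8% of members. A change of 2-fold or more was called in 3 rising and 6 falling members without added salt, against 6.69% and 5.32% of all genes, and in 5 and 7 with it, against 8.18% and 6.88%. Of the rising members Zfp811, Zfp389 (without added salt) and Zfp560 (with it) passed the background filter only through groups with LPS. The falling members with added salt include Zfp651, Zfp709 and Zfp526. Zfp651 and Zfp709 passed only through the groups without LPS, and Zfp526 through NS alone. Among the 248 members well above background on all arrays, fitted with 12168 such genes, 57 rose and 83 fell without added salt, where 30.6% and 38.3% of those genes did. With added salt 54 rose and 114 fell, against 32.5% and 42.8%. The median log2 difference of members was -0.06 without added salt, against -0.03 over all genes, and -0.18 with it, against -0.11. Under cyclic loess normalization these medians turned to 0.01 and 0.01, and 69 members rose and 67 fell without added salt and 83 rose and 88 fell with it, so the balance of rises and falls depends on the scaling.

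Of the 57 members that rose without added salt, 42 (73.7%) also rose with it, and of the 85 that fell 77 (90.6%) also fell. As shares of the calls with added salt these are 73.7% and 63.6%. The same overlap was not counted over all genes, so these shares do not set members apart from other genes. The 2 comparisons share no array. Members differed less between groups than other genes: the gap between the highest and lowest group mean had a median of 0.48 log2 units (quartiles 0.32 and 0.72), against 0.61 for all genes tested. It reached 1 in 24 members, 9.09%, and in 25.1% of all genes.

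**Figure D1:**
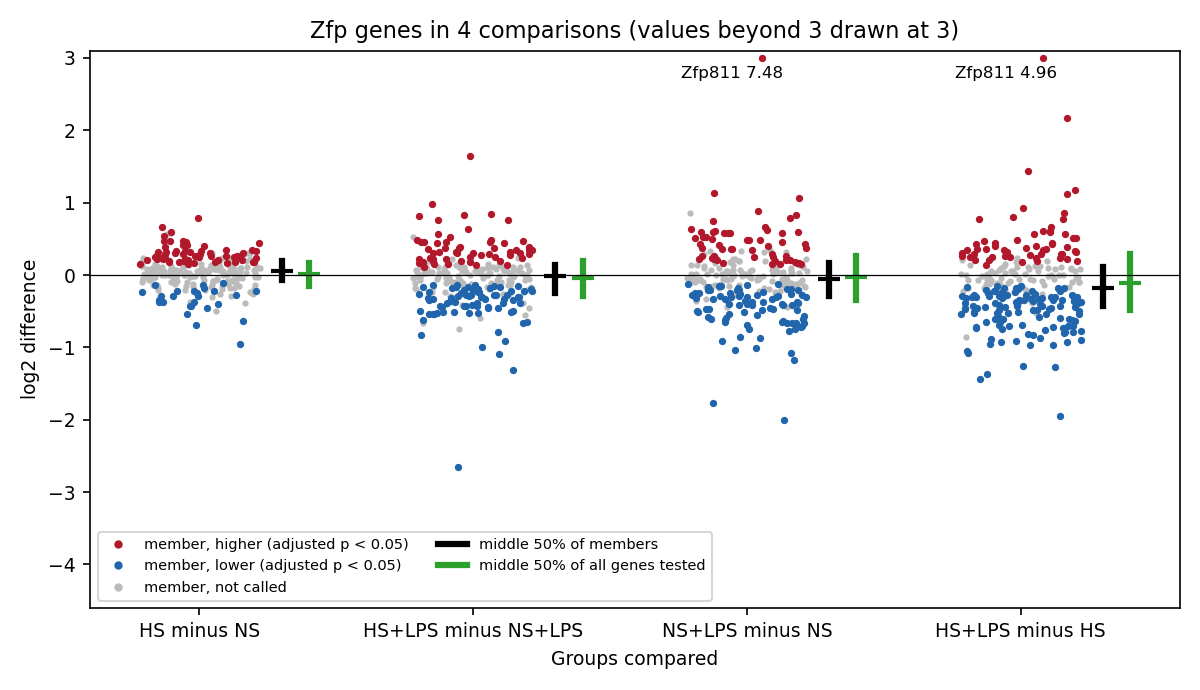
Each point is 1 of 264 Zfp genes, placed by its log2 difference (vertical axis) in 4 comparisons (horizontal axis) and coloured by its call. Bars span the middle 50% of members (black) and of all genes tested (green), with the median as a tick, and the members' bars are shorter in all 4; Zfp811 lies beyond the axis at 7.48 and 4.96.

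Zfp811 had the largest rise of any member. On the NS arrays it stood at 0.966, 1.37 and 1.45% of the 75th percentile and on the HS arrays at 0.965, 1.16 and 1.28%, not well above background on any of the 6. On the NS+LPS arrays it stood at 210, 235 and 221%, and on the HS+LPS arrays at 36.3, 36.8 and 32.4%. The LPS arrays lay far above the others, and the HS+LPS arrays far below NS+LPS. The rise was at least 61.7-fold without added salt and at least 9.21-fold with it, where the dim group is set at the lowest signal still called above background. These floors hold for the main scaling only. Over the alternatives the log2 difference of Zfp811 ran from 4.34 to 7.59 without added salt and from 2.20 to 5.36 with it. With LPS, added salt lowered it 6.32-fold (log2 -2.66, SE 0.15, adjusted p = 5.18e-07). The probes of its neighbours did not follow it: Zfp871 ranged over 116 to 166%, Zfp799 over 7.23 to 10.3% and Zfp870 up to 12.8% across the 12 arrays. Zfp811 became a member through its LPS groups, so its rise is given as a description with no test. It has 1 probe here, so no second measurement of this rise exists on the array.

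Rises with LPS in members above background throughout were smaller. Zfp945 stood at 20.4, 21.9 and 20.3% in NS and 42.6, 44.2 and 44.3% in NS+LPS, a log2 difference of 1.07 (SE 0.06). The other 2 Zfp945 probes rose by 0.93 and 0.73. In HS+LPS Zfp945 stood at 20.4, 22.3 and 19.1%, close to its NS level, and the LPS difference with added salt was 0.11. Zfp420 (0.89), Zfp948 (0.79) and Zfp383 (0.63) rose without added salt. Zfp389 also gained over 2-fold there (log2 1.13), though its NS level was near background and 1 of those 3 arrays was below it. Unlike the others here, it became a member through NS+LPS alone, so its rise is given as a description.

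With added salt the largest rises among members bright in both groups were those of Zfp462, Zfp608 and Zfp949. Zfp462, a chromatin protein known from embryonic stem cells, stood at 9.33, 8.73 and 7.29% in HS and 20.8, 21.3 and 26.5% in HS+LPS (log2 1.43, SE 0.15, adjusted p = 9.85e-06). Without added salt it rose by 0.74, from 5.52, 7.27 and 8.18% to 12.4, 11.2 and 11.1%. Its groups do not overlap in either comparison, but its second probe gave -0.15 without added salt and 0.66 with it. Zfp608, which represses the Rag genes in thymocytes, stood at 103, 103 and 90.3% in HS and 231, 217 and 224% in HS+LPS (log2 1.18, SE 0.06). Zfp949 rose by 1.12 with added salt on its brightest probe, whereas its other probe gave -0.01. Zfp287 (0.92), Zfp184 (0.80) and Zfp93 (0.78) followed. Zfp560 was well above background on all 3 HS+LPS arrays, at 6.99, 6.03 and 7.36%, and on 1 of the other 9. Its rise there was at least 1.78-fold over HS and at least 1.44-fold over NS+LPS. Zfp560 became a member through HS+LPS alone, so this rise is given as a description.

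Among members bright in both groups, Zfp652 and Zfp362 had the largest falls with LPS. Zfp652 encodes a DNA-binding repressor that works with corepressors of the ETO family. It stood at 775, 780 and 769% in NS and 189, 181 and 208% in NS+LPS, and at 974, 1096 and 1119% in HS and 300.3, 253 and 275% in HS+LPS. The LPS arrays lay below the others at both salt levels, by -2.01 (SE 0.08, adjusted p = 4.39e-09) and -1.95 (SE 0.08, adjusted p = 5.68e-09). Its second probe fell less, by -0.51 and -0.53. The brightest Zfp652 probe shared a run of 55 bases with a probe named for a region of chromosome 11. What RNA of that region adds to its signal was not tested. Zfp362 stood at 258, 280 and 250% in NS and 72.4, 75.6 and 84.2% in NS+LPS (log2 -1.76, SE 0.06). With added salt it went from 248, 259 and 269% to 102, 98.1 and 101% (log2 -1.36).

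Zfp148, also called ZBP-89, binds GC-rich promoter elements. It stood at 483, 473 and 479% in NS and 242, 226 and 244% in NS+LPS, and the log2 differences were -1.01 and -1.06 (SE 0.04 in both). Its second probe gave -0.17 and -0.53, so the size of its fall depends on the probe. Zfp629 (-1.18) and Zfp30 (-1.08) also fell more than 2-fold without added salt, as did Zfp91 (-1.04). Zfp30 went from 23.9, 23.3 and 24.4% to 10.6, 11.7 and 11.5%. Zfp398 (-0.96), Zfp931 (-0.96) and Zfp606 (-0.93) had the next largest falls with added salt among members bright in both groups. Zfp651 fell out of detection: it was well above background on all 6 arrays without LPS (7.19 to 9.34%) and on 0 of the 6 with LPS (3.23 to 6.07%), at least 1.51-fold lower without added salt and at least 1.71-fold with it. Under normexp the log2 differences of Zfp651 shrank from -0.72 and -1.27 to -0.16 (adjusted p = 0.0613) and -0.11 (adjusted p = 0.19), and both calls ended.

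**Figure D2:**
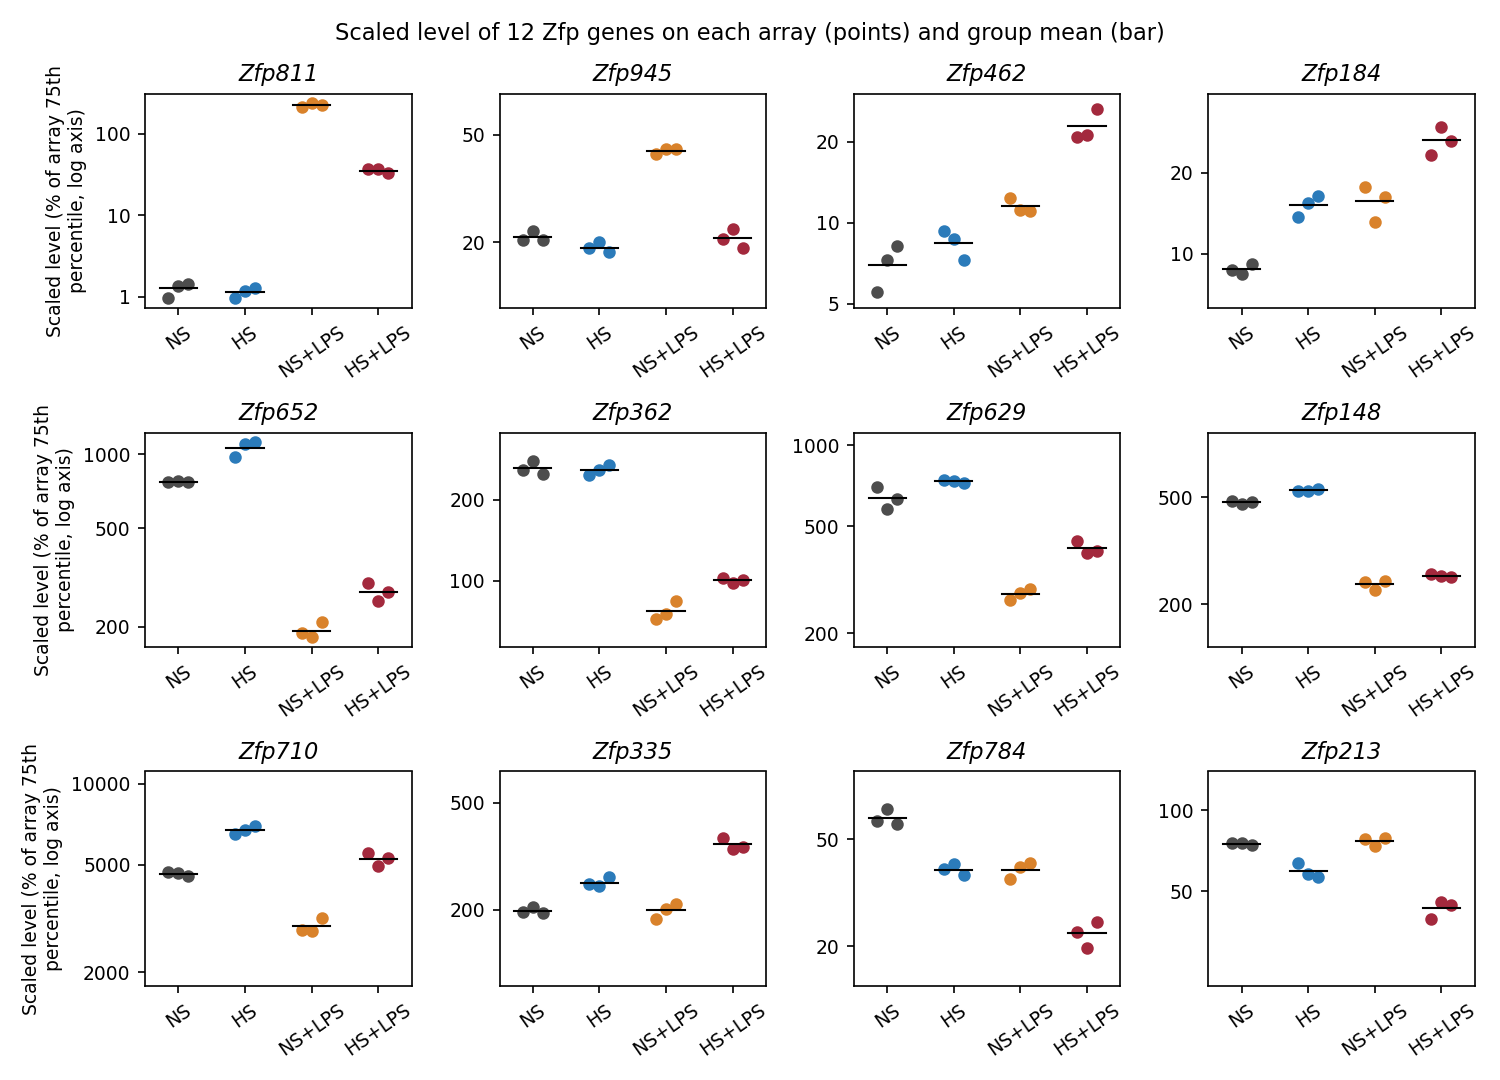
Each panel shows 1 Zfp gene, with its level on every array as a percent of that array's 75th percentile (vertical log axis, scaled per panel) and the 4 groups along the horizontal axis; points are arrays, bars group means, n = 3. Zfp811 is bright only with LPS, Zfp945 is highest with LPS and no added salt, and Zfp652, Zfp362, Zfp629 and Zfp148 are lower in both LPS groups.

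Added salt alone moved fewer Zfp genes and by less. Without LPS, 59 members rose (22.3%), against 18.2% of all genes tested, and 26 fell (9.85%), against 18.8%. Among the 248, 61 rose and 27 fell, against 21.3% and 20.8%. The median difference of members was 0.06, against 0.02 over all genes, and members ranged from -0.96 (Zfp560, near background) to 0.79 (Zfp184). Under cyclic loess 49 rose and 36 fell. The count of falls was 16 without NS replicate 1 and also 16 without HS replicate 3.

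Zfp184, Zfp296 and Zfp710 were among the largest rises with salt alone. Zfp184 stood at 8.69, 8.38 and 9.18% in NS and 13.7, 15.4 and 16.3% in HS (log2 0.79, SE 0.12, adjusted p = 0.000603). It rose in each of the 4 comparisons, by 0.75 for salt with LPS, and by 0.83 and 0.80 for LPS, so that HS+LPS was highest at 23.3, 29.5 and 26.2%. Zfp296, a gene of germ cells and pluripotent cells, stood at 546, 562 and 536% in NS and 867, 842 and 907% in HS (log2 0.67, SE 0.05). Zfp710 stood at 4706, 4654 and 4538% in NS and 6514, 6726 and 6952% in HS (log2 0.54). Zfp52 rose by 0.47 and Zfp652 by 0.45. Zfp273 (0.60) and Zfp748 (0.47) were also called, but Zfp748 lost its call without any 1 of NS replicates 1, 2 and 3 and HS replicates 1 and 3 (0.31 to 0.51), and under quantile or cyclic loess normalization both did.

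Falls with salt alone among members bright in both groups were led by Zfp784. It stood at 58.4, 64.5 and 56.8% in NS and 38.6, 40.3 and 36.6% in HS (log2 -0.64, SE 0.09, adjusted p = 0.000331). With LPS it fell again, from 35.6, 39.3 and 40.7% to 22.5, 19.7 and 24.7% (log2 -0.79). Zfp647 (-0.54), Zfp772 (-0.46), Zfp110 (-0.43), Zfp949 (-0.42) and Zfp458 (-0.41) followed. Zfp110 encodes a factor that binds the p75 neurotrophin receptor, and stood at 223, 207 and 211% in NS and 153, 172 and 151% in HS.

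In the presence of LPS, added salt raised 59 members (22.3%), against 26.2% of all genes, and lowered 78 (29.5%), against 31.4%. A called rise of 2-fold or more was seen in 1 member (Zfp560), against 2.83% of all genes, and a called fall of that size in 3 (Zfp811, Zfp526 and Zfp945), against 3.38%. Zfp560 passed the background filter through HS+LPS alone, the group in which it is high. Among the 248, 59 rose and 75 fell, against 28.9% and 31.4%. The median of members was -0.01, against -0.04 over all genes. It was 0.03 under normexp background correction, with 70 rises and 60 falls, and 0.04 under cyclic loess, with 74 rises and 60 falls, so the side with more calls depends on the processing. Of the 59 members that salt raised without LPS, 31 (52.5%) rose with LPS too, and of the 26 it lowered 15 (57.7%) fell too, which is 52.5% and 19.2% of the calls with LPS. This overlap, too, was not counted over all genes.

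Zfp335, Zfp219 and Zfp710 were among the largest rises. Zfp335, a part of histone methyltransferase complexes needed for T cell maturation, stood at 184, 201 and 211% in NS+LPS and 369, 337 and 342% in HS+LPS (log2 0.82, SE 0.06, adjusted p = 2.26e-06). Zfp219, a partner of Sox9 in cartilage, stood at 49.0, 45.6 and 46.5% in NS+LPS and 84.8, 85.7 and 82.8% in HS+LPS (log2 0.84, SE 0.05). The second Zfp219 probe, however, gave 0.00. Zfp710 went from 2875, 2846 and 3179% to 5562, 4942 and 5294% (log2 0.83, SE 0.06). Zfp462 (0.98), Zfp317 (0.76) and Zfp184 (0.75) rose as well, and the other Zfp317 probe rose by 0.53.

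After Zfp811, the largest falls with salt and LPS among members bright throughout were those of Zfp945 (-1.09, SE 0.06, adjusted p = 5.1e-07), Zfp352, Zfp78 (-0.91) and Zfp213 (-0.84). All 3 Zfp945 probes fell, the others by -0.88 and -0.84. Zfp213 stood at 78.0, 73.8 and 78.7% in NS+LPS and 39.3, 45.7 and 44.4% in HS+LPS. Zfp352, whose replicates spread widely (212, 94.2 and 86.1% in NS), had a difference of -0.99 with an SE of 0.39. Its call (adjusted p = 0.0492) ended without any 1 of NS+LPS replicates 1 and 2 and HS+LPS replicates 1, 2 and 3 (-0.77 to -1.10). Zfp526 also lost over 2-fold, near background and with overlapping arrays.

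The effect of salt itself differed with LPS in 24 members toward higher values and 51 toward lower ones, by the interaction term, 9.09% and 19.3% of members against 17.4% and 18.8% of all genes. Terms of 1 log2 unit or more were called in 2 members toward higher values (Zfp560 and Zfp324), against 2.13% of all genes, and in 1 toward lower (Zfp811), against 2.34%. None of these was well above background in every group: Zfp324 was so on all 3 arrays of NS and on 1 array of each other group, and passed through NS alone. Among the 248 the counts were 22 and 53, against 19.5% and 20.1%. Under cyclic loess the counts were 37 and 34. Zfp945 (-0.96, SE 0.09) and Zfp811 (-2.52, SE 0.21) had the most negative terms of those named, but Zfp811 had no level above background without LPS, so its term takes in a difference between groups at background. Zfp560 (2.60, SE 0.42) was above background on all arrays of HS+LPS alone, so its term takes in differences between groups at background. Salt was called in opposite directions at the 2 LPS states in some members well above background throughout. Zfp202, Zfp511 and Zfp959 rose without LPS and fell with it, and Zfp346, Zfp580 and Zfp608 did the reverse. Zfp608 went from 119, 123 and 118% in NS to the lower HS values above, and from 176, 178 and 185% in NS+LPS to higher HS+LPS values. These genes were picked after their values were seen. Their salt calls without LPS had adjusted p-values of 0.0021 (Zfp346) to 0.0491 (Zfp959).

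**Figure D3:**
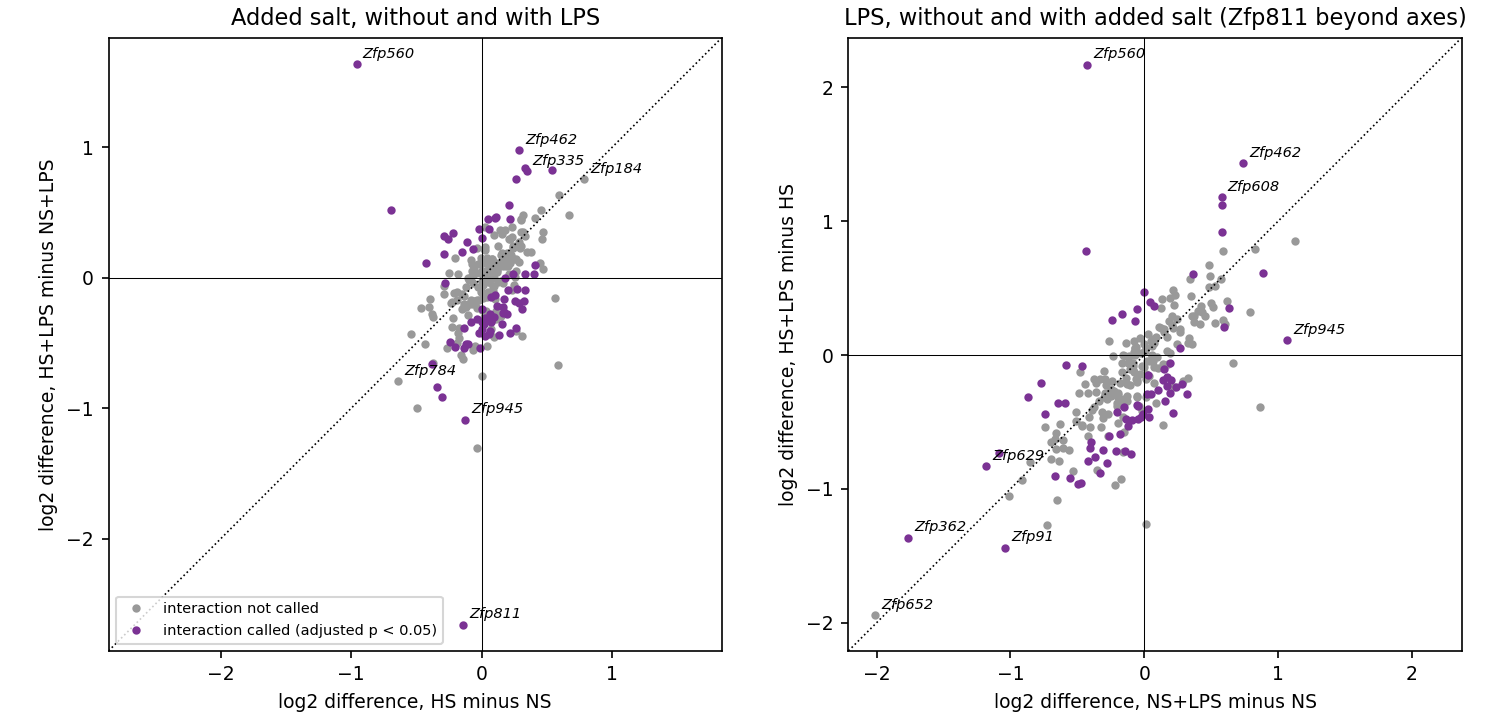
Each point is a Zfp gene, placed by its log2 difference for salt without LPS (left, horizontal) against with LPS (left, vertical), and for LPS without (right, horizontal) against with added salt (right, vertical); purple marks a called interaction and the dotted line equal differences. Zfp811 lies far below the line on the left at -2.66, and on the right Zfp652 lies close to the line at -2.01 and -1.95 while Zfp945 lies off it at 1.07 and 0.11.

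Members with a known role were taken from a list of 28 names, of which 24 were measured. Of the 5 that silence retroelements or guard imprints, 3 fell and 1 rose with LPS alone, where 35.1% of all genes fell and 28.6% rose, and 4 fell with LPS and salt, against 41.8%. Zfp809, which brings TRIM28 to retroviral primer binding sites, stood at 132, 130 and 140% in NS and 102, 88.8 and 96.4% in NS+LPS (log2 -0.49, SE 0.06). Its second probe gave 0.38, so the direction rests on the probe chosen, and with added salt the probes gave -0.28 and 0.70. Zfp932, a silencer of endogenous retroviruses, fell by -0.56 and -0.71, and its 2 other probes gave -0.73 and -0.03 without added salt. Zfp445, which protects imprints, fell by -0.13 and -0.22, and under cyclic loess the first was -0.06 and not called. Zfp568, which represses a placental Igf2 transcript, rose by 0.20 with LPS alone and fell by -0.19 with LPS and salt. The first call ended without NS replicate 3 (0.14) or NS+LPS replicate 3 (0.18), and the second without HS replicate 1, HS+LPS replicate 1 or HS+LPS replicate 3 (-0.16 to -0.18) and under cyclic loess (-0.06).

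Of the 8 members that act on ubiquitin, ribosomes or RNA, 4 fell and 1 rose with LPS alone (35.1% and 28.6% of all genes), and 6 fell and 2 rose with LPS and salt (41.8% and 30.5%). The 1 rise with LPS alone was that of Zfp207 (0.17), a spindle protein, and ended without NS replicate 1 (0.14) or NS+LPS replicate 1 (0.13), and the fall of Zfp346 (-0.16), which binds double-stranded RNA, ended without NS replicate 1 (-0.13) or NS+LPS replicate 2 (-0.12) and under cyclic loess (-0.09). Zfp91, a ubiquitin ligase of the noncanonical NF-kB pathway, stood at 18.6, 21.2 and 20.9% in NS and 8.50, 11.2 and 9.98% in NS+LPS. In HS it stood at 18.1, 18.7 and 18.4% and in HS+LPS at 6.68, 6.57 and 7.12%, where 2 of 3 arrays were well above background (log2 -1.44, SE 0.09). Over the alternatives the LPS difference of Zfp91 ran from -1.13 to -0.51 without added salt and from -1.47 to -0.41 with it. For salt with LPS Zfp91 gave -0.53, which turned to 0.05 under normexp. Zfp706 fell from 3020, 3040 and 2986% in NS to 2505, 2458 and 2589% in NS+LPS (log2 -0.26), and by -0.60 with added salt. Zfp106, a protein that keeps motor neurons and muscle in working order, fell by -0.59 and -0.36, and salt raised it by 0.22 and 0.45. Zfp622, a ribosome assembly factor, rose with LPS only where salt was added, from 8148, 8700 and 8959% to 10995, 11246 and 10986% (log2 0.37), with an interaction of 0.29. Zfp593, which acts on the large ribosomal subunit, rose with salt alone (0.34) and fell with LPS and salt (-0.44). Zfp598, the ubiquitin ligase that marks collided ribosomes, fell with LPS and salt (-0.54, SE 0.14, adjusted p = 0.0047).

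Of the 11 members measured that are known from development, chromatin or the cell cycle, 5 rose and 2 fell with salt alone (18.2% and 18.8% of all genes) and 4 rose and 3 fell with salt and LPS (26.2% and 31.4%). With LPS alone 2 rose and 2 fell (28.6% and 35.1%), and with LPS and salt 3 rose and 3 fell (30.5% and 41.8%). Among the calls for salt alone, that of Zfp143 (0.17) ended without any 1 of NS replicates 1 and 3 and HS replicates 1 and 3 (0.14 to 0.16), and that of Zfp703 (-0.22) without any 1 of the 6 arrays (-0.16 to -0.26). For salt with LPS, that of Zfp148 (0.10) ended without any 1 of NS+LPS replicate 2 and HS+LPS replicates 1, 2 and 3 (0.07 to 0.11). Zfp318 rose in each, by 0.30, 0.24, 0.43 and 0.37. Its 3 other probes gave higher values with LPS, by 0.63 to 1.65 without added salt, but for salt with LPS they gave -0.32, -0.09 and 0.30. Zfp143, an activator at many promoters, rose with LPS by 0.40 and 0.33. Zfp263 fell with LPS by -0.41 and -0.54. Zfp131 rose with salt alone (0.18) and fell with LPS and salt (-0.15), but under cyclic loess the latter was -0.05 and not called. Zfp503 fell with salt by -0.38, and by -0.27 with LPS, and the latter call ended without NS+LPS replicate 3 (-0.21) or HS+LPS replicate 1 (-0.22). Zfp281, a pluripotency factor, gave 0.07, 0.00, 0.06 and 0.00 in the same order as Zfp318 and was not called.

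The members lay on 20 chromosomes by their mm9 probe positions, 70 of them on chromosome 7 and 33 on chromosome 17. Runs of 4 or more members less than 500000 bases apart numbered 15 and held 119 members. On chromosome 7, between positions 134381189 and 135029250, 10 members lay together. Salt raised 6 of them without LPS, against 18.2% of all genes, and 6 with it, against 26.2%, where Zfp689 fell. LPS lowered 6 of the 10 without added salt, against 35.1%, and 7 with it, against 41.8%. Zfp553 there stood at 207, 197 and 205% in NS, 250, 241 and 262% in HS, 141, 157 and 158% in NS+LPS and 209, 207 and 202% in HS+LPS. Zfp629, Zfp764, Zfp668 and Zfp646 were called in the same directions as Zfp553 in all 4 comparisons. Of 24 other genes tested in that interval, salt raised 7 and lowered 1 without LPS and raised 10 and lowered 4 with it, and LPS lowered 8 and raised 3 without added salt and lowered 8 and raised 7 with it.

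On chromosome 6, 8 neighbours at 47769288 to 48377858 held 5 that LPS lowered at both salt levels, Zfp398, Zfp282, Zfp212, Zfp777 and Zfp746, by -0.36 to -0.49 without added salt. Over all genes LPS lowered 35.1% and raised 28.6% without added salt. With added salt it lowered 41.8% and raised 30.5%, and these shares are the background for this run and the next. On chromosome 17, 11 neighbours at 32910629 to 33768635 held 8 that LPS lowered with added salt, 2 that it lowered without, and Zfp811, the only 1 of the 11 that it raised. Over all 33 members of chromosome 17, salt lowered 14 with LPS, against 31.4% of all genes, and 1 without, against 18.8%, and 13 had a lower interaction term, against 18.8%. These runs were chosen for display after their values were seen, and their comparison with other runs was not tested.

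**Figure D4:**
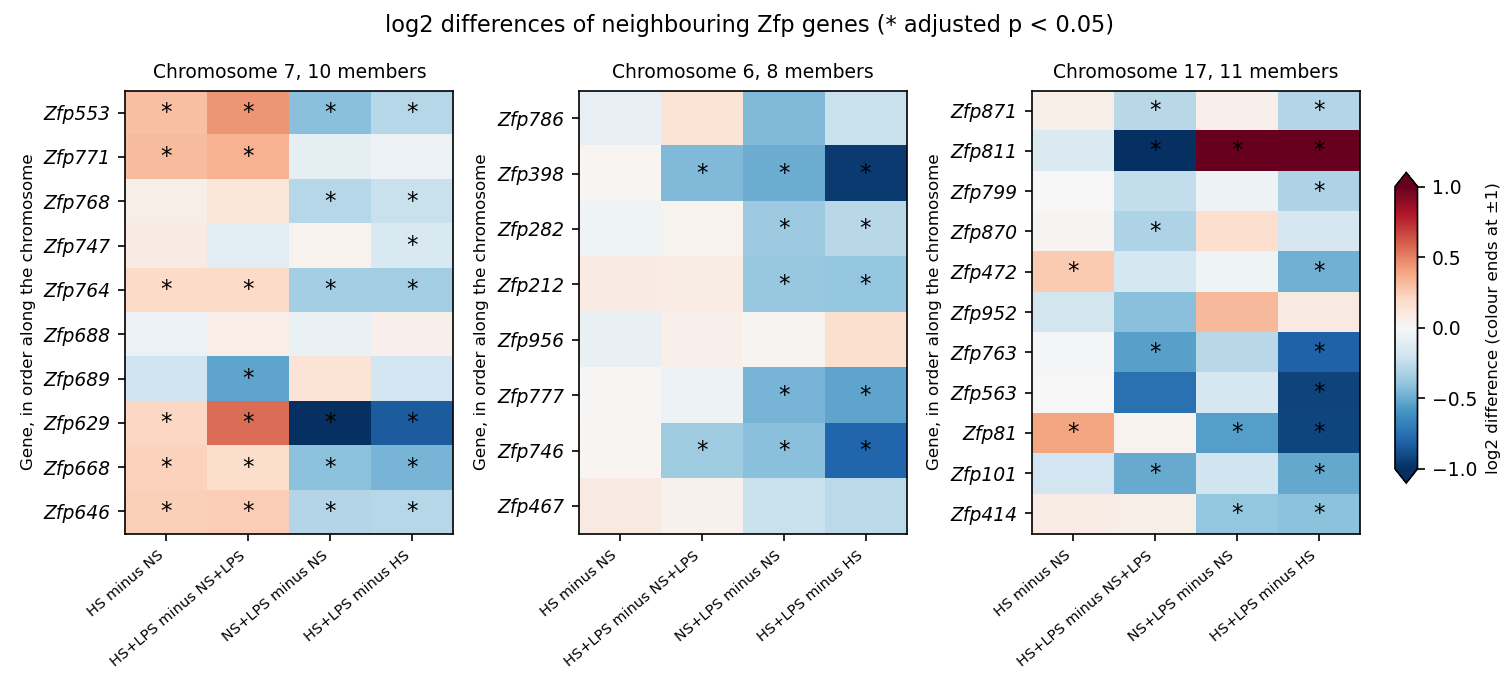
Colour gives the log2 difference (scale ends at -1 and 1) of each Zfp gene of 3 runs (rows, in chromosome order) in 4 comparisons (columns), with a star where limma's adjusted p was under 0.05. On chromosome 7 rows such as Zfp553 and Zfp629 are red for salt and blue for LPS, on chromosome 6 the starred cells of the LPS columns are all blue, and on chromosome 17 Zfp811 stands apart from its neighbours.

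Of 23 genes for the partners of KRAB proteins 21 were tested, and LPS lowered 12 and raised 4 without added salt, and lowered 14 and raised 4 with it. Over all genes LPS lowered 35.1% and raised 28.6% without added salt and lowered 41.8% and raised 30.5% with it, which is the background for each list here. Trim28 itself fell by -0.65 and -0.80 and Setdb1 by -0.16 and -0.34. Genes of the HP1 proteins fell too, Cbx5 by -0.70 and -1.09 and Cbx3 by -0.46 and -0.74. Salt with LPS lowered 8 and raised 3 (31.4% and 26.2% of all genes), led by Chd3 (0.85) and Pphln1 (-0.69). Of 35 ZBTB genes tested, whose zinc fingers follow a BTB domain, LPS lowered 19 and raised 5 without added salt, and lowered 20 and raised 6 with it. Of 14 SCAN zinc finger genes it lowered 5 and raised 5, and lowered 5 and raised 4. Of 15 KLF and Sp genes it lowered 8 and raised 4, and lowered 10 and raised 4, while salt lowered 7 and raised 1 without LPS (18.8% and 18.2% of all genes), led by Klf6 (-0.96) and Klf4 (-0.94).

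RefSeq promoter windows on GRCm38.p6, 250 bases before to 50 after a transcript start, were matched to 221 members by symbol, 275 windows in all. The ETS motif CCGGAAG was in 21.45% of member windows and in 8.86% of 32851 windows of all genes, counting both strands. Members called lower with LPS at both salt levels held it in 23.81% of 84 windows, and members called higher at both in 37.5% of 40. The NRF1 motif (GCGC, any base, TGCGC) was in 8.73% of member windows, 4.6% of all windows and 13.1% of the 84, and the 40 had no match. The CRE motif TGACGTCA was in 4.73% and 1.79%, its looser form TGACGNCA in 7.27% and 3.21%, and TATAAA in 6.55% and 13.62%. The YY1 core AAGATGGC was in 5.09% of member windows and 2.75% of all, and the longer YY1 motif in 1.09% and 0.63%. The AP-1 motif TGANTCA was in 4.0% and 7.81%, the NF-kB motif (GGG, 2 bases of any kind, TTTCC) in 2.55% and 1.63%, and the BANP motif in 0.36% and 0.47%. The interferon response motif (GAAA and GAAA with 2 bases between) was in 1.82% of member windows and 3.44% of all. It was in 0.0% of the 84 and 7.5% of the 40, and TATAAA was in 9.52% of the 84 and 0.0% of the 40. Differences between the 84 and the 40 were not tested for any motif. The median window held 16 CG pairs in members and 7 over all, with a GC content of 56% and 52.67%, and the part of this difference in the motif shares was not tested. Several windows of 1 gene overlap, and a match is a description of letters, not of binding. LPS raised Zfp184 and lowered Zfp606 and Zfp784 at both salt levels. It raised Zfp945 only without added salt, so windows of Zfp945 are not among the 40. The upstream 250 bases of these 4 members are shown, with ETS matches (CCGGAAG on either strand) or, for Zfp784, the NRF1 match in capitals.
Zfp945: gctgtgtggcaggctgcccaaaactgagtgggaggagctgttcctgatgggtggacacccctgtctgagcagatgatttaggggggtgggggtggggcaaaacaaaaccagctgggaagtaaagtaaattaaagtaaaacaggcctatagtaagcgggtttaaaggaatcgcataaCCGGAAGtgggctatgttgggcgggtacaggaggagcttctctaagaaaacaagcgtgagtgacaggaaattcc
Zfp184: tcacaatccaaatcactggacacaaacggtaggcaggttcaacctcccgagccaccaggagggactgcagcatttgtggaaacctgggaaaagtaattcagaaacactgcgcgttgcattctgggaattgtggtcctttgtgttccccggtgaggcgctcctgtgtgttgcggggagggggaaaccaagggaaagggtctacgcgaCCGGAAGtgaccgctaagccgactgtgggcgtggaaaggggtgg
Zfp606: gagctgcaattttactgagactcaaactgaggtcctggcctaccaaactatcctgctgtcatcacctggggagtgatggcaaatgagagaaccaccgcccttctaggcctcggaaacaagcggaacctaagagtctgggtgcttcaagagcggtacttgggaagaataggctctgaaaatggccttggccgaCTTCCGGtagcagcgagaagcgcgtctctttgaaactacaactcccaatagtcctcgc
Zfp784: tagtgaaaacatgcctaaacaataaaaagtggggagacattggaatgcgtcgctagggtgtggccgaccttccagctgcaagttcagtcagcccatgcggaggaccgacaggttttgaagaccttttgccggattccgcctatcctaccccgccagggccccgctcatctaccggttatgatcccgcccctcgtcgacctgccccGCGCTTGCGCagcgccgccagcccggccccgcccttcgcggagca
They lie on GRCm38.p6 at chr17:22867135-22867384 (minus strand), chr13:21944844-21945093 (plus strand), chr7:12478055-12478304 (plus strand) and chr7:5038447-5038696 (minus strand). The capitals begin 74, 44, 58 and 45 bases before the start.

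**Figure D5:**
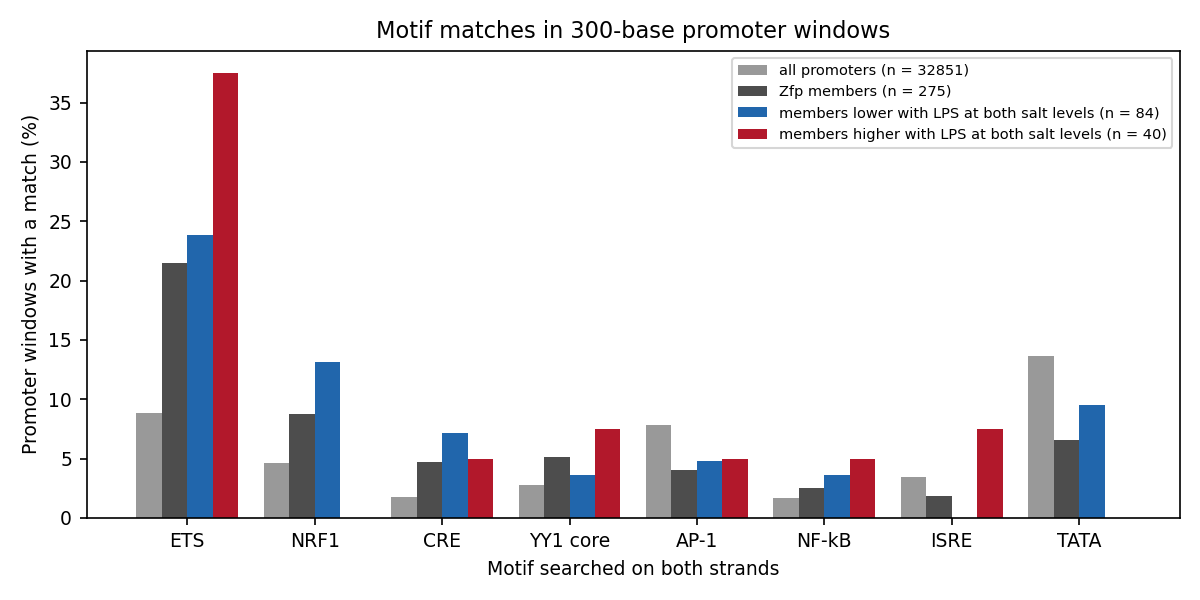
Bars give the percent of 300-base promoter windows (vertical axis) that hold each motif (horizontal axis) among all windows, all member windows, and members lower or higher with LPS at both salt levels. The ETS bars are the tallest in each member series, at 21.45, 23.81 and 37.5%. Over all windows the TATA bar (13.62%) is taller than the ETS bar (8.86%).

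Of the 264 members, 96 had more than 1 probe that passed. Probes of 1 gene were called in opposite directions in 6 of them for salt with LPS, 9 for LPS without added salt and 8 for LPS with it. For such genes the direction given is that of the brightest probe.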

How the data were processed

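RNA of 12 samples, 3 in each of 4 groups named in the sample titles, was hybridised to 1-colour mouse arrays. Per the file headers, the authors deposited scanner intensity values on a linear scale, background subtracted and detrended by Agilent Feature Extraction (version 10.7.3.1). The deposited flags for signal well above background and for outlier spots are 0 or 1 per spot, of another kind than intensity, per the file headers. The deposited value table, also intensity, has a median of 28.8 on every array; its normalization is not given in the sources used here.

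From the scanner files, log2 of the processed signal was centred on each array's 75th percentile over 59305 non-control spots, outlier spots were left out, and replicate spots were averaged, leaving 55671 probes (10 were dropped). None was saturated. Probes with a symbol passed (18846) when all 3 arrays of any group flagged them well above background, and the brightest stood for each of 13860 genes. Linear models over all 12 arrays were fitted in R 4.3.3 by limma 3.58.1 (residual degrees of freedom 8, 2-sided tests, Benjamini-Hochberg over all genes, threshold 0.05). On simulated data with 200 of 13860 genes changed, the fit recovered 84 to 92% of log2 changes of 1, with 5 to 12 false calls. Tables, motifs and figures used the R package data.table (version 1.17.8), Python 3.11.15, pandas 2.3.3, Biopython 1.88, numpy 2.4.6 and matplotlib 3.10.9. The number of arrays limits the precision.

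Genes named were, per comparison, 6 rises and 6 falls of greatest size in called members bright in both groups whose arrays did not overlap, the 3 largest at-least folds, the 5 largest interaction terms each way, and members of known role. Naming the 3 members of highest level was dropped, since levels of different probes are not comparable. The members and lists were chosen with earlier results of these data known. Alternatives were normexp (offset 50), quantile and cyclic loess normalization, the deposited table, other filters, averaging each gene's probes, eBayes with a trend, only the groups compared, blocks for replicate and slide, the shared slide alone, and leaving out each array. Protein features (KRAB domains, finger counts) were not analysed here.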

Additional observations from a re-analysis of the deposited data

Results flagged for a closer look

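The effect of added salt differed with LPS by the interaction term of limma (adjusted p under 0.05) in the members that follow; values are the log2 salt effect with LPS minus that without. Every such value contains the HS+LPS arrays, whose slide cannot be told apart from the group. Toward higher values with LPS these were Zfp560 (2.60), Zfp462 (0.69), Zfp608 (0.60), Zfp580 (0.56), Zfp108 (0.55), Zfp949 (0.54) and Zfp219 (0.51). The index members Zfp335 (0.47), Zfp346 (0.47), Zfp622 (0.29) and Zfp106 (0.24) went the same way. Toward lower values they were Zfp811 (-2.52), Zfp945 (-0.96), Zfp959 (-0.65), Zfp930 (-0.64), Zfp78 (-0.61) and Zfp433 (-0.57). The index members Zfp593 (-0.43), Zfp207 (-0.40), Zfp91 (-0.40), Zfp568 (-0.39), Zfp706 (-0.34) and Zfp131 (-0.18) did likewise.

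Some of these calls ended when any 1 of several arrays, or 1 given array, was left out. That of Zfp462 ended without any 1 of NS replicates 2 and 3, HS replicate 3, NS+LPS replicates 2 and 3 and HS+LPS replicate 3, at 0.57 to 0.67. That of Zfp78 ended without any 1 of NS replicate 3, HS replicate 2, NS+LPS replicate 2 and HS+LPS replicate 3, at -0.49 to -0.57, and was smaller and not called under normexp (-0.15), quantile normalization (-0.39), cyclic loess (-0.37) and in the deposited table (-0.39). That of Zfp433 ended without any 1 of HS replicate 2, NS+LPS replicate 2 and HS+LPS replicate 2, at -0.50 to -0.55, and that of Zfp131 without HS replicate 2, at -0.16. That of Zfp91 ended without any 1 of NS replicate 1, HS replicates 1, 2 and 3, NS+LPS replicates 2 and 3 and HS+LPS replicates 1 and 2, at -0.31 to -0.41, and was -0.07 under quantile normalization, -0.08 under cyclic loess and -0.05 in the deposited table, not called in any of these.

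Zfp811 was not above background without LPS. Zfp560 was well above background on all arrays of HS+LPS alone, so its term takes in differences between groups at background. With the mean of a gene's probes Zfp207 was -0.08, and under normexp Zfp106 was 0.14, neither called. The second probes of Zfp219 (-0.34) and Zfp930 (-0.24) and the other 2 of Zfp207 (-0.02 and 0.18) gave other terms than the brightest probes, while the other 2 of Zfp945 gave -0.70 and -1.01.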

How the results depend on the processing

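Over at most 23 alternatives a result, 2231 values of named members kept their direction and call, 127 kept the direction and lost the call, and 6 turned. The cause was not tested for any. With the mean of a gene's probes, Zfp148 turned to -0.0514 for salt with LPS, Zfp207 to -0.0818 for LPS without added salt, and Zfp809 to 0.21 for LPS with added salt (adjusted p = 0.00263). With normexp, Zfp91 turned to 0.0538 for salt with LPS and 0.10 for the interaction, and Zfp273, not above background with LPS, to 0.0043 for LPS with added salt. Falls with salt alone numbered 26, and 16 with no filter on dim probes. Interaction terms toward higher values numbered 24, and 37 under cyclic loess, and those toward lower values 51, and 31 with no filter. Cyclic loess moved the median of all genes for LPS with added salt from -0.11 to 0.03.

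Leaving out each array gave 45 to 53 rises and 16 to 26 falls for salt alone, 50 to 56 and 66 to 74 for salt with LPS, 50 to 57 and 75 to 86 for LPS alone, 50 to 55 and 109 to 113 for LPS with added salt, and 20 to 25 and 38 to 48 for the interaction. The labels do not say whether the replicate numbers pair the samples. Deviations of same-numbered arrays correlated at -0.20 to 0.12, which cannot settle it. With the replicate block the counts were 53 and 25, 57 and 75, 57 and 85, 57 and 121, and 22 and 50 in the same order. Slides could not be separated from HS+LPS, and small differences of dim probes are limited by their signal over background.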
